A study of Mus musculus with 12 samples.

Results

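The Ikaros family of zinc finger transcription factors was followed across 12 RNA-seq libraries of mouse type 1 invariant natural killer T (iNKT1) cells. Its members were chosen by name: Ikzf1 (Ikaros), Ikzf2 (Helios), Ikzf3 (Aiolos), Ikzf4 (Eos) and Ikzf5 (Pegasus). All 5 were among the 14004 genes of the deposited table. The cells were sorted as CD1d-tetramer-positive and YFP-positive, from thymus and from liver. Control cells were Tbx21Cre Rosa26-YFP+, and conditional knockout (cKO) cells were Tbx21Cre Ets1F/F Rosa26-YFP+. Both genotypes therefore carried the Cre recombinase and the reporter, and the cKO cells carried floxed Ets1 alleles in addition. Tbx21 encodes T-bet, so the YFP mark and the loss of Ets1 were restricted to cells in which the Tbx21-driven Cre had been active. Genotype and tissue made 4 groups, with 3 libraries in each. Ages and strain backgrounds were not given in the sources used here. The submitters call the libraries of a group independent replicates, without saying whether different mice gave them. A p-value here reflects only how far these samples spread, and part of that spread may be technical.

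Ikaros proteins bind DNA through a cluster of zinc fingers near the amino terminus and pair with one another through a separate set of fingers near the carboxyl terminus. They recruit chromatin complexes, among them the nucleosome remodelling and deacetylase (NuRD) complex, and can both repress and activate genes. Ikaros is needed for lymphocytes to form, Aiolos acts in mature B and T cells, Helios marks regulatory, self-reactive and innate-like T cells, and Eos acts with Foxp3 in regulatory T cells. Pegasus shares the pairing fingers but recognises a different DNA motif. Ets1 is a transcription factor of another family, with broad roles in lymphocyte development.

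The 84 coding bases of Ikzf1 that were most alike over Ikzf1 to Ikzf4 lay in the DNA-binding fingers. They are shown because these 4 genes share those fingers and because reads had to be told apart between them. They were read from GENCODE M21 transcripts (GRCm38) on the coding strand, 5′ to 3′, and capitals mark the 57 bases identical in all 4.
Ikzf1: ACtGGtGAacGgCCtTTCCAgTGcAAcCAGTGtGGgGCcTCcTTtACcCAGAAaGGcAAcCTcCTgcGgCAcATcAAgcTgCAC
Ikzf2: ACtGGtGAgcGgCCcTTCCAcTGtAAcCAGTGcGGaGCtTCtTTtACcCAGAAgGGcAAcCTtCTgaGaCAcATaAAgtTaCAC
Ikzf3: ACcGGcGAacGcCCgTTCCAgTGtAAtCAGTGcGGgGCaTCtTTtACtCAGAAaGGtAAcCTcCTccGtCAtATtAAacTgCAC
Ikzf4: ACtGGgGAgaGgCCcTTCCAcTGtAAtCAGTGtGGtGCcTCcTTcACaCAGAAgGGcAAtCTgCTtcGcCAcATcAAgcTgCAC
Each of these windows crossed a splice junction, between exons 5 and 6 in Ikzf1 and between exons 4 and 5 in the other three. With the intron included, they span chr11:11748568-11754086 (Ikzf1, plus strand), chr1:69570581-69577784 (Ikzf2), chr11:98488940-98490335 (Ikzf3) and chr10:128640229-128641056 (Ikzf4), all but Ikzf1 on the minus strand. Ikzf2 and Ikzf4 matched Ikzf1 at 82.1% of its bases and Ikzf3 at 81.0%. Over whole transcripts, the longest run of bases shared exactly by a pair of members was 32, between Ikzf2 and Ikzf4. Ikzf1 and Ikzf3 shared at most 26 bases in a row, Ikzf2 and Ikzf3 at most 20, and Ikzf1 and Ikzf2 at most 17. The sources used here do not give how reads that match several genes were counted.

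Each member's row sums reads over the whole gene, so splice forms, including the short Ikaros forms that lack DNA-binding fingers, were not separated. Ikzf1 (ENSMUSG00000018654) spans chr11:11685003-11772926 on the plus strand. On the minus strand, Ikzf2 (ENSMUSG00000025997) spans chr1:69531214-69687245 and Ikzf3 (ENSMUSG00000018168) chr11:98464902-98546031. Ikzf4 (ENSMUSG00000002578) spans chr10:128630843-128645991 and Ikzf5 (ENSMUSG00000040167) chr7:131388652-131410521, both also on the minus strand. Exons of Ikzf1 and Ikzf3 overlapped no exon of another annotated gene. Ikzf5 shares 4652 exon bases with Pstk on the opposite strand, so without knowing whether counting used strand its reads and those of Pstk cannot be told apart there. Ikzf2 shares 144 exon bases with an antisense gene, Gm29114, and Ikzf4 shares 37 with Gm26876.

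The depth recovered from the deposited table was 18.5 to 43.4 M (mega) reads in 10 libraries. Control liver library 3 held 3.87 M and cKO liver library 2 held 3.21 M. Control thymus libraries 1 and 2 stood apart in another way: mitochondrial ribosomal RNA took 29.99% and 34.2% of their deposited values, against 24.2% to 25.8% in the other thymus libraries and 23.2% to 33.1% in liver. Ets1 had means of 23745 ± 4279 (SD, n = 3) in control and 8225 ± 3176 in cKO cells of the thymus. This is a change of -1.58 ± 0.27 (log2, SE; adjusted p by limma 0.0095). In liver the means were 17737 ± 1587 and 4602 ± 1107, a change of -1.97 ± 0.27 (log2; adjusted p by limma 0.0012). The fall in thymus no longer passed without control thymus libraries 1 and 2 (-1.31, limma adjusted p = 0.40). All 11 iNKT1 markers were measured, and their summed value lay between 113500 and 182300 in every library. Cd3e (group means 33750 to 42720) and Il2rb (38610 to 66910) carried much of this sum, so it says little about the others. Within control thymus Tbx21 ran from 1386 to 5762 and Ifng from 24.31 to 2696, while Xcl1 ran from 3467 to 3547. Single markers of that list did differ: Xcl1, a chemokine, fell in cKO liver (-2.54, limma adjusted p = 0.0062) and over both tissues (-1.61, limma adjusted p = 0.0061). Between tissues Il2rb was called higher in control liver than in control thymus (0.79), and Klrd1 lower in liver in control (-2.34) and in cKO cells (-1.56).

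Values below are the authors' gene counts adjusted to a common library size. Log2 fold changes come from limma, fitted to log2(value + 1), and carry ± SE, and a gene is called when its p, adjusted over all 13058 genes tested, is under 0.05. All 5 members passed the filter on low values. In bulk libraries, fewer cells expressing a gene and less RNA per cell cannot be told apart.

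Helios and Aiolos transcripts were higher in cKO cells over the combined tissues, while no difference was detected in Ikaros transcripts. Over both tissues Ikzf2 rose 3.33-fold and Ikzf3 1.85-fold, and these 2 members of 5 were called, where 2.27% of all genes were called in either direction and 1.18% as higher. For both genes all 3 cKO libraries lay above all 3 control libraries in thymus and again in liver, a separation seen in 1.82% of all genes tested (7.6% in thymus, 9.99% in liver, each alone). Eos was near the limit of detection, and Pegasus was low and variable between libraries.

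**Figure D1:**
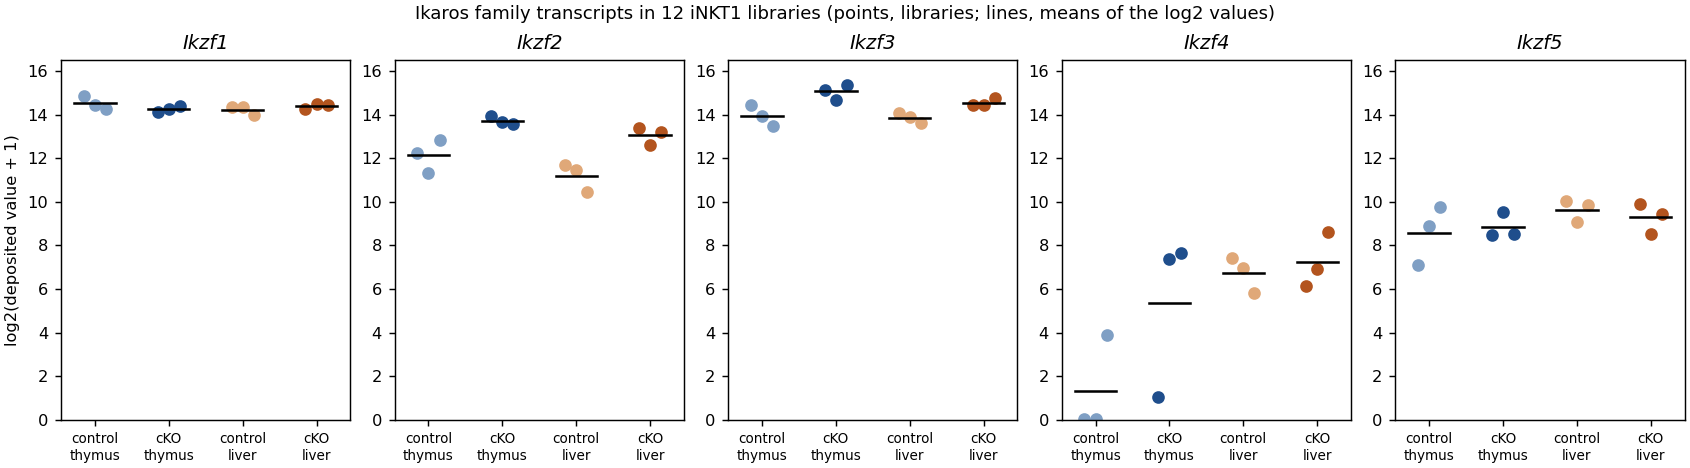
Level of each Ikaros family member in every library, as log2(deposited value + 1) on the vertical axis, with 3 points per group and a line at the mean of the log2 values. The cKO points of Ikzf2 and Ikzf3 lie above the control points of the same tissue, those of Ikzf1 overlap them, and 2 of the 3 control thymus points of Ikzf4 are near 0.

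Ikaros is the founding member and the one on which lymphocyte formation depends most. Ikzf1 stood at 29875, 21944 and 19723 in control thymus libraries 1 to 3, and at 17919, 19772 and 21766 in cKO thymus. In liver it stood at 20814, 20831 and 16407 in control and at 19761, 22953 and 22186 in cKO libraries. The groups overlapped in both tissues, and the highest value belonged to control thymus library 1. Between genotypes it differed by -0.25 ± 0.20 (log2) in thymus (limma adjusted p = 0.62) and by 0.17 ± 0.20 in liver (limma adjusted p = 1). Over both tissues the estimate was -0.04 ± 0.14, with a 95% interval of -0.34 to 0.25 (limma adjusted p = 0.94). Differences inside that interval remain compatible with these libraries, and the interval is not a limit of detection. The coefficient of variation within a group ran from 7.7% in cKO liver to 22.4% in control thymus. Ikzf1 was taken as the reference for ratios within a library. Such a ratio also moves with any difference of Ikzf1 between genotypes, estimated at -0.25 in thymus.

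Helios is the member with the largest difference between genotypes over both tissues among those called. Ikzf2 stood at 4844, 2515 and 7335 in control thymus and at 15486, 13137 and 11975 in cKO thymus. In liver it stood at 3273, 2816 and 1376 in control libraries and at 10854, 6210 and 9428 in cKO libraries. The lowest cKO library of each tissue lay above the highest control library of that tissue. The log2 fold change was 1.59 ± 0.39 in thymus, which did not pass the test (95% interval 0.78 to 2.40, limma adjusted p = 0.067), where 0.636% of genes were called, 0.314% as higher. It was 1.88 ± 0.39 in liver (limma adjusted p = 0.030), where 0.505% of genes were called, 0.314% as higher. Over both tissues it was 1.74 ± 0.27 (limma adjusted p = 0.0017), and 35 genes had a smaller p.

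The combined rise of Ikzf2 was called in 26 of 26 alternative analyses, with log2 fold changes from 1.38 to 1.91. The liver call was less stable and was kept in 18 of 27. It was lost without cKO thymus library 3 (1.88, limma adjusted p = 0.050, just over the threshold) and without control liver library 2 (2.02, 0.078) or 3 (1.502, 0.16). It was also lost without cKO liver library 1 (1.71, limma adjusted p = 0.20), 2 (2.12, 0.072) or 3 (1.82, 0.14). Leaving out control thymus library 3 gave a thymus estimate of 1.95 that passed (adjusted p by limma 0.013). Leaving out libraries 1 and 2 of that group instead gave 0.88 (adjusted p by limma 0.63). Library 3 had the highest Ikzf2 of the control thymus libraries and a mitochondrial share near that of the cKO libraries.

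Aiolos, the closest partner of Ikaros in mature lymphocytes, also rose. Ikzf3 was measured at 22115, 15752 and 11493 in control thymus and at 36274, 26094 and 42310 in cKO thymus. In liver it stood at 16999, 15285 and 12568 in control libraries and at 22020, 21980 and 27393 in cKO libraries. The groups did not overlap in either tissue. Between genotypes Ikzf3 rose by 1.11 ± 0.24 (log2) in thymus (limma adjusted p = 0.043). The estimate was 0.67 ± 0.24 in liver, which did not pass (95% interval 0.17 to 1.18, limma adjusted p = 0.38). Over both tissues it was 0.89 ± 0.17 (limma adjusted p = 0.0074).

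Over both tissues the call of Ikzf3 was kept in 25 of 26 alternatives and lost without the 2 liver libraries of lowest depth (0.86, limma adjusted p = 0.058). In thymus alone it was kept in 10 of 27. It was lost without control thymus library 2 (1.10, limma adjusted p = 0.078) or 3 (0.87, 0.053), without cKO thymus library 1 (1.07, 0.17) or 3 (0.95, 0.17), and without any 1 of the 6 liver libraries (limma adjusted p between 0.057 and 0.070), which enter through the shared estimate of spread. It was also lost when libraries were rescaled by TMM, edgeR's trimmed mean. The median gene tested lay 0.24 higher in cKO than in control thymus on the log2 scale, and 0.0031 higher after TMM. With TMM the thymus estimates were 0.85 for Ikzf3 (limma adjusted p = 0.15), 1.33 for Ikzf2 (limma adjusted p = 0.11) and -0.51 for Ikzf1 (limma adjusted p = 0.29).

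**Figure D2:**
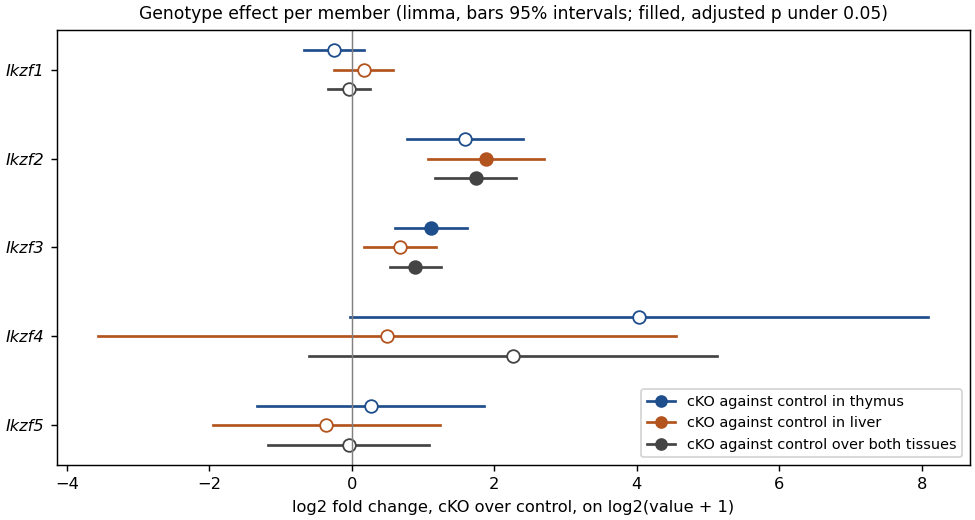
Log2 fold change of each member, cKO over control, on the horizontal axis, for thymus, liver and both tissues, with 95% intervals from limma and filled points where the adjusted p is under 0.05. Ikzf2 is called in liver and over both tissues, Ikzf3 in thymus and over both tissues, and the intervals of Ikzf4 span several log2 units.

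Ratios of members within a library do not depend on how libraries are scaled to one another. They were taken from deposited values without a length correction, so they compare groups and not the levels of the genes. The ratio of Ikzf3 to Ikzf1 was 0.740, 0.718 and 0.583 in control thymus and 2.02, 1.32 and 1.94 in cKO thymus, a mean of 0.680 ± 0.085 against 1.76 ± 0.39 (n = 3). In liver it was 0.817, 0.734 and 0.766 in control and 1.11, 0.958 and 1.23 in cKO libraries, 0.772 ± 0.042 against 1.10 ± 0.14. Taken as geometric means, the cKO ratio was 2.56 times the control ratio in thymus and 1.42 times in liver. In both tissues the lowest cKO ratio was above the highest control ratio, as was already so for the values of Ikzf3 itself. The share of all genes whose ratio to Ikzf1 separates in this way was not counted.

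The ratio of Ikzf2 to Ikzf1 separated the genotypes as well. Its mean was 0.216 ± 0.137 in control and 0.693 ± 0.159 in cKO thymus, and 0.125 ± 0.038 in control and 0.415 ± 0.140 in cKO liver. Between the called members themselves, Ikzf2 over Ikzf3 overlapped in thymus (0.160 to 0.638 in control, 0.283 to 0.503 in cKO). In liver it did not overlap, at 0.110 to 0.193 in control and 0.283 to 0.493 in cKO libraries. These ratios are descriptions, and no test was applied to them. No share over all genes was counted beside them. They reuse the values given above and are not separate support.

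**Figure D3:**
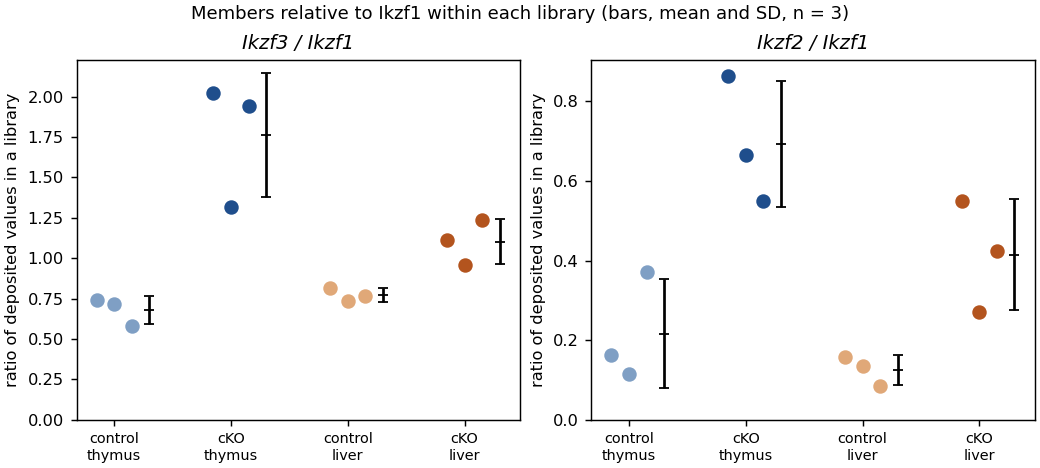
Ratio of the deposited value of Ikzf3 (left) and Ikzf2 (right) to that of Ikzf1 in the same library, on a vertical axis from 0, with 3 points per group and the mean and SD beside them. Every cKO point lies above every control point of the same tissue in both panels.

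Eos is best known from regulatory T cells, and its transcripts were scarce here. Ikzf4 was represented by 0, 0 and 11 reads in control thymus and by 1, 177 and 273 in cKO thymus. The control liver libraries held 197, 144 and 9 reads and the cKO liver libraries 114, 18 and 457. The deposited values were at most 13.8 in control thymus and ran from 1.03 to 201.2 in cKO thymus, 55.6 to 171.4 in control liver and 70.0 to 393.6 in cKO liver. Its log2 fold change of 4.03 ± 1.93 in thymus did not pass (limma adjusted p = 0.38). It was 1.46 without control thymus libraries 1 and 2 and 6.20 without cKO thymus library 1, and a pseudocount of 8 gave 2.62. In liver it was 0.50 ± 1.93 (limma adjusted p = 1). The 9 reads of control liver library 3 and the 18 of cKO liver library 2 stem from the libraries of lowest depth.

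Pegasus pairs with the other members but targets other sites. Ikzf5 stood at 134.6, 479.9 and 857.4 in control thymus and at 358.3, 734.5 and 365.4 in cKO thymus. In liver it stood at 1045, 530.4 and 914.3 in control and at 960.4, 360.9 and 694.0 in cKO libraries. Its values varied several-fold inside a group, and every pair of groups overlapped. The log2 fold change over both tissues was -0.05 ± 0.54, with a 95% interval of -1.18 to 1.08 (limma adjusted p = 0.98).

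The genotype effects of thymus and liver were compared by their difference (liver minus thymus). It was 0.29 ± 0.55 for Ikzf2, with a 95% interval of -0.85 to 1.44, and -0.43 ± 0.34 for Ikzf3, with an interval of -1.15 to 0.28. For Ikzf1 it was 0.42 ± 0.28. None of the 5 members was called in this comparison by limma, edgeR or DESeq2, where 0.00766% of all genes, 1 gene, was called by limma. By limma 0 members had an unadjusted p under 0.05, beside 702 of all 13058 genes. That Ikzf3 passed in thymus and not in liver, and Ikzf2 in liver and not in thymus, is therefore not shown to be a difference between the tissues.

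No member was called between tissues. In control cells limma called 0 of 5 members (0.605% of all genes were called), and edgeR and DESeq2 called 0. By limma 2 of the 5 had an unadjusted p under 0.05, as had 1658 of all 13058 genes. Ikzf2 was lower in liver by the estimate (-0.94 ± 0.39, limma adjusted p = 0.32), with libraries that overlapped. Ikzf4 was higher in all 3 control liver libraries than in any control thymus library, as were 9.55% of genes, but its difference of 5.42 ± 1.93 did not pass (limma adjusted p = 0.24). In cKO cells limma called 0 of 5 (0.222% of all genes), and edgeR and DESeq2 called 0. By limma 1 of the 5 had an unadjusted p under 0.05, as had 992 of all 13058 genes. Ikzf2 lay lower in all 3 cKO liver libraries than in any cKO thymus library, as did 7.26% of genes, with a difference of -0.65 ± 0.39 (limma adjusted p = 0.79). Ikzf3 was at -0.53 ± 0.24 in the same comparison (limma adjusted p = 0.61). Hepatocyte markers (5 of 6 measured) summed to 802.2 to 1808 in the liver libraries and to at most 429.8 in the thymus libraries, and their part in these differences was not tested.

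To set the members against each other, values were divided by the length of their merged exons in kilobases. On this per-kilobase scale of levels, Ikzf1 and Ikzf3 were among the highest genes, at the 98.9 and 98.3 percentiles of 12521 genes with a length, and Ikzf2 was at 89.8. Ikzf5 was at the 47.5 percentile and Ikzf4 at 13.5. With all annotated exons, control thymus held 4128 ± 924 of Ikzf1 per kilobase and 1880 ± 611 of Ikzf3, with no overlap. In cKO thymus it was 3431 ± 333 of Ikzf1 and 3986 ± 936 of Ikzf3, and these overlapped. Control liver held 3350 ± 441 and 1708 ± 255, and cKO liver 3745 ± 288 and 2718 ± 356, both without overlap.

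The order of Ikzf1 and Ikzf3 rests on the exon length used. The merged exons of Ikzf3 come to 8754 bases in the comprehensive annotation and to 3658 in the basic one, while those of Ikzf1 come to 5777 and 5582. With the basic lengths Ikzf3 was the higher of these genes in each group, overlapping Ikzf1 in control thymus and control liver. Under both lengths Ikzf2 followed, then Ikzf5, then Ikzf4, in each group. Ikzf2 and Ikzf5 overlapped in control liver (214.3 ± 85.2 against 145.0 ± 46.7 per kilobase), and Ikzf5 and Ikzf4 overlapped in cKO liver with the comprehensive lengths (117.4 ± 52.5 against 32.5 ± 29.0).

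As a share of the family's summed per-kilobase level, Ikzf1 made up 63.3% ± 1.2 (SD, n = 3) in control thymus and 39.7% ± 4.4 in cKO thymus. In liver its share was 61.7% ± 1.8 in control and 50.9% ± 4.4 in cKO cells. Ikzf3 made up 28.5% ± 4.0 and 45.5% ± 5.9 in thymus, and 31.4% ± 0.8 and 36.8% ± 2.2 in liver, control first. The share of Ikzf2 was 6.75% ± 4.14 and 13.6% ± 2.6 in thymus, and 3.84% ± 1.10 and 10.3% ± 2.9 in liver. With the basic lengths the share of Ikzf1 was 45.6% in control and 24.6% in cKO thymus, and 43.3% and 33.9% in liver, so the level of the share changed and its direction between genotypes did not. The family's summed level was 6516 ± 1418 in control and 8687 ± 1020 in cKO thymus, and 5436 ± 774 and 7374 ± 516 in liver.

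Markers of other cells that the sort could hold were read beside these results. Of 7 regulatory T cell markers, 6 were measured, Ikzf4 itself included, and Foxp3 had no match among the genes of the deposited table. They summed to 2563 to 11090 in control thymus, 3431 to 7328 in cKO thymus, 10290 to 13640 in control liver and 5968 to 8722 in cKO liver. In thymus Ctla4 was 2.345 to 11.34 in control and 0 to 1.421 in cKO libraries, Tnfrsf4 0.02111 to 177.9 and 13.2 to 698, and Il2ra 16.84 to 6197 and 523.1 to 3230. Tnfrsf18 was 1123 to 2422 in control and 866.5 to 2484 in cKO thymus. In liver Ctla4 was 84.12 to 186.3 in control and 0.929 to 12.02 in cKO libraries, while Il2ra was 4036 to 7460 and 4124 to 7312. Members of the list thus went both ways in thymus, with Ikzf4 and Tnfrsf4 higher by their cKO means and Ctla4 lower. Of this list only Izumo1r, which regulatory and anergic T cells carry, was called by limma between genotypes. It fell in cKO liver, with a log2 fold change of -7.77 (adjusted p by limma 0.00033), and over both tissues (-4.11, adjusted p by limma 0.0024).

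B cell markers (7 of 9 measured), relevant because B cells express Aiolos, summed to 3157 to 5654 in control and 1518 to 5704 in cKO thymus. In liver they summed to 5478 to 8191 in control and to 1106 to 2084 in cKO libraries, where Ighm alone was 5257 to 7338 and 1081 to 1983. Ighm was called lower in cKO liver (-2.18, limma adjusted p = 0.024) and over both tissues (-1.26, limma adjusted p = 0.033), and the sums of the thymus groups overlapped. Natural killer cell markers (7 of 7) summed to 7425 to 10330 in control thymus, 1644 to 2911 in cKO thymus, 1997 to 4907 in control liver and 1117 to 3062 in cKO liver. Ncr1, their defining receptor, had 0 reads in all 6 thymus libraries and was 13.7 to 615.6 in control and 0.8345 to 232.8 in cKO liver. In thymus Klre1 was 2753 to 3956 in control and 909.9 to 1719 in cKO libraries, and Fcer1g 3191 to 6967 and 262.8 to 531.7. The list went both ways there, with 3 of 7 log2 fold changes positive. Klra8 was 111.6 to 380 in control and 190.8 to 918.7 in cKO thymus, and Eomes 0.02095 to 23.87 and 0 to 85.98. Fcer1g fell over both tissues (-3.02, limma adjusted p = 0.0085). Immature thymocyte markers (7 of 9) summed to 2239 to 8517 in control thymus, 3155 to 4711 in cKO thymus, 10320 to 13840 in control liver and 5536 to 8375 in cKO liver. Themis, a signalling adaptor of developing and mature T cells, rose in cKO thymus (126.7 to 1043 in control, 2360 to 3044 in cKO libraries, 2.76, limma adjusted p = 0.026) and over both tissues (1.56, limma adjusted p = 0.037), while Cd4 fell over both tissues. Rag1 was at most 0.905 in the liver libraries and reached 486.2 in control thymus. Myeloid markers (6 of 11) summed to 10.58 to 315.1 in control thymus, 168.6 to 328 in cKO thymus, 36.75 to 1298 in control liver and 703.5 to 1156 in cKO liver. Itgam, one of them, was 0.8323 to 108.7 in control and 402.3 to 653.9 in cKO liver. Cd68 was 12.84 to 1171 in control and 22.36 to 438.3 in cKO liver, and C1qb 0 to 107.2 and 0.9249 to 37.87, both with lower cKO means. Of the 5 myeloid markers tested, 4 had a positive log2 fold change between genotypes in liver. Of 7 endothelial markers 2 were measured, Pecam1 and Eng. Pecam1 was 458.3 to 670.8 in control and 1.16 to 87.96 in cKO liver. In thymus it was 71.73 to 301.6 in control and 0.9226 to 68.46 in cKO libraries. Eng was at most 7.113 in control and 0.8284 in cKO liver, and had 0 reads in thymus. The part of the marker sums that moved with genotype in the differences of Ikzf2 and Ikzf3 was not tested.

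The partners through which Ikaros proteins act did not pass the test. Of 13 NuRD subunits tested, limma called 0 over both tissues, and edgeR and DESeq2 called 0. By limma 1 of the 13 had an unadjusted p under 0.05, as had 1788 of all 13058 genes. The median log2 fold change of the subunits was -0.03, beside 0.14 over all genes tested. The most abundant were Chd3 (0.30 ± 0.21) and Chd4 (-0.19 ± 0.25), the ATPases of the complex, and Mbd2 (0.28 ± 0.24), a reader of methylated DNA. Of 10 other corepressors and remodellers, limma called 0, with 0 at an unadjusted p under 0.05, and edgeR and DESeq2 called 0. Their median was 0.24, with Suz12 of Polycomb complex PRC2 at 0.12 ± 0.31, Smarca4, a remodelling ATPase, at 0.17 ± 0.23 and the scaffold Sin3a at 0.30 ± 0.30.

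Ikaros and Aiolos proteins are also controlled by breakdown and phosphorylation, which transcript levels do not show. In human cells the cereblon ubiquitin ligase destroys both proteins when bound by thalidomide-like drugs. Of its 5 genes, limma called 0 over both tissues, with 0 at an unadjusted p under 0.05, and edgeR and DESeq2 called 0. Their median was 0.04, and the receptor subunit Crbn itself was at -0.79 ± 0.39 (limma adjusted p = 0.39). Of 6 genes of the kinase CK2 and the phosphatase PP1, which add and remove phosphate on Ikaros, limma called 0, and edgeR and DESeq2 called 0. By limma 1 of the 6 had an unadjusted p under 0.05, as had 1788 of all 13058 genes. The median of the 6 was 0.01, and the most abundant were Ppp1cb (-0.34 ± 0.22), Ppp1ca (0.55 ± 0.24) and Csnk2a1 (-0.17 ± 0.27).

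Of 30 genes described as regulated by Ikaros family proteins in lymphocytes, 25 were tested. Over both tissues limma called 3 of the 25, 2 of them lower, where 297 of all 13058 genes (2.27%) were called. The median log2 fold change of the 25 was 0.53, beside 0.14 over all genes. Cd4, the coreceptor, also counted among the thymocyte markers, fell over both tissues by -3.27 ± 0.56 on the log2 scale (limma adjusted p = 0.0034) and was called in 26 of 26 alternatives. Its mean was 3652 ± 3340 in control and 400.3 ± 322.0 in cKO thymus, and 7106 ± 752 and 908.1 ± 715.0 in liver, and neither tissue passed alone (limma adjusted p = 0.077 and 0.061).

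Il7r, the interleukin-7 receptor chain and a described Ikaros target, fell over both tissues (-0.99 ± 0.23, limma adjusted p = 0.024) and in thymus (-1.80, limma adjusted p = 0.012). The thymus means were 39230 ± 11200 in control and 11270 ± 3310 in cKO cells, against 3638 ± 1350 and 3040 ± 419 in liver. Without control thymus libraries 1 and 2 the thymus estimate was -1.34 (adjusted p by limma 0.47), and the combined one was -0.77 (adjusted p by limma 0.21). It was also called lower in liver than in thymus, by -3.47 in control cells (limma adjusted p = 1.2e-05) and by -1.86 in cKO cells (limma adjusted p = 0.020). Other abundant genes of the list did not pass: Itgal, an integrin chain, was at 0.23 ± 0.14, Satb1, a chromatin organiser, at -0.41 ± 0.14 and Bcl2, a survival factor, at 0.23 ± 0.16 over both tissues. In liver alone limma called 0 of the 25, edgeR called 0 and DESeq2 3, among them Cd4 and Notch1. Over all 13058 genes DESeq2 called 272 there. By limma 7 of the 25 had an unadjusted p under 0.05 in liver, beside 904 of all 13058 genes.

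Genes whose log2 values followed a member most closely over the 12 libraries were sought among 9656 genes. The 12 points share 4 groups, so Pearson's r is also given on deviations from group means. For Ikzf2 they were Atp8a1, a phospholipid flippase (r = 0.96, Spearman's rho = 0.94, r within groups = 0.88), Gas7, a cytoskeletal adaptor (0.93, 0.85, 0.70), and Slc41a2, a magnesium transporter (0.92, 0.95, 0.66). For Ikzf3 they were Rangap1, the activator of the Ran GTPase (r = 0.90, rho = 0.85, r within groups = 0.88), Sp4, a zinc finger factor (0.87, 0.76, 0.47), and Slc26a2, a sulfate transporter (0.85, 0.89, 0.77). Ikzf1 was followed by Taf13, a subunit of TFIID (r = 0.88, rho = 0.92, r within groups = 0.94), Camsap2 (0.84, 0.69, 0.82) and Usp3 (0.84, 0.34, 0.84). Ikzf4, set apart by its libraries near 0, was close to Nr4a1 (r = 0.97) and Naa38 (0.95). Ikzf5 was closest to Gbe1 (r = 0.90), Acadl (0.90) and Usb1 (0.89). No gene appeared among the 3 closest of more than 1 member.

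**Figure D4:**
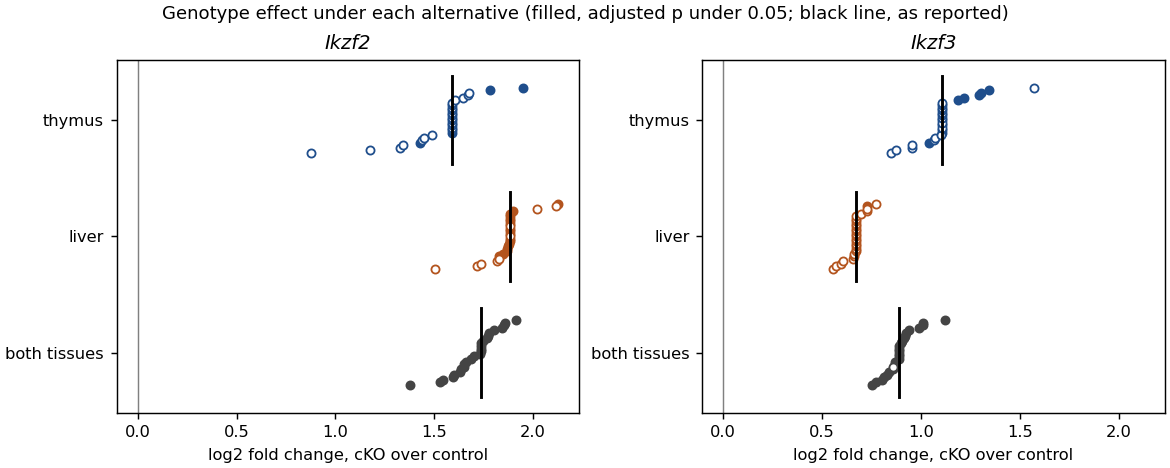
Log2 fold change of Ikzf2 and Ikzf3, cKO over control, on the horizontal axis under each alternative analysis, for thymus, liver and both tissues. Filled points have an adjusted p under 0.05, and a black line marks the reported value. All points lie above 0, and those for both tissues are filled but for 1 of Ikzf3.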

How the data were processed

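Sorted iNKT1 cells of 12 samples were profiled by RNA-seq. Per the labels' protocols, RNeasy mini kits gave the RNA and Nugen's Ovation Ultralow kit the libraries. Named in the submitters' processing notes, without roles, are mm10, HTSeq 0.6.1, STAR, TopHat2 2.1.0, Trimmomatic 0.33 and DESeq2. The authors deposited 1 table of 14004 genes as a signal adjusted for library size. Inverting a negative binomial quantile adjustment, inferred from the values, gave whole reads (96.6% of values within 0.1 of a whole read). In cKO liver libraries 1 and 2 and control liver library 3 the reads rest on this inversion alone. They served for depth, edgeR 4.0.16 and DESeq2 1.42.0.

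Identifiers were matched to GENCODE M21 (GRCm38, the assembly mm10 names), 13359 of 14004. Genes reaching 10 in 3 or more libraries (13058, with 946 left out) entered limma 3.58.1 (R 4.3.3) as log2(value + 1). The model had 4 group means, a variance trend, no covariate, with 8 residual (10.7 prior) degrees of freedom. Tests were two-sided, with Benjamini-Hochberg adjustment. Pseudocounts, filters, scalings, libraries, blocks, weights and tests were varied. The test was checked on simulated counts. Of log2 changes of 1 it recovered 4.84% in thymus and 1.39% in liver. Of log2 changes of 3 it recovered 27.9% and 32.4%. False calls were 5 of 40 in thymus and 3 of 39 in liver. A gene that was not called can therefore still differ.

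The members, lists and comparisons were chosen with earlier results of these data known. Named genes were the 5 members, Ets1, and from each list the called genes and up to 3 others of highest mean. Likeness was ranked by Pearson's r among genes with a mean of at least 50 (3 per member). Sequences are the longest open reading frames of protein-coding transcripts. Protein sequences and promoters were not used here, and some genes and sequences that these rules name are not reported here.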

Additional observations from a re-analysis of the deposited data

How the results depend on the processing

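The higher Ikzf2 and Ikzf3 in cKO cells kept their direction under each alternative run, for the thymus, the liver and the combined comparison. In thymus 1 member was called as reported, 2 (Ikzf2 and Ikzf3) with a pseudocount of 8, quantile normalization or DESeq2, and 0 with TMM or median-of-ratios scaling, without control thymus libraries 1 and 2, without the 2 liver libraries of lowest depth, with only the thymus groups in the fit, or with edgeR. In liver 1 member was called as reported, 2 with sample quality weights, and 0 without the 2 liver libraries of lowest depth or with edgeR. Over both tissues 2 were called, and 1 (Ikzf2) without those 2 libraries. Leaving out each library in turn gave 0 to 1 called in thymus, 0 to 1 in liver and 2 in each case over both tissues. A replicate block within tissue left 0 called in thymus and 0 in liver, and 2 over both. Deviations of same-numbered libraries correlated weakly, from -0.096 to 0.080. Between genotypes in liver, same-numbered libraries gave 0.0783, 0.0803 and 0.0724, and differently numbered ones -0.0572 to -0.0103. In thymus same-numbered libraries gave 0.0413, -0.0958 and -0.0761, and differently numbered ones -0.1138 to 0.1867. Correlations this small cannot decide whether the numbers pair the libraries. Genes called over the whole table ran from 3 to 621 in thymus, 9 to 620 in liver and 93 to 759 over both tissues, against 83, 66 and 297 as reported, with the most from DESeq2 in thymus and over both and from sample weights in liver.

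Estimates that changed sign were all uncalled. For Ikzf5 in thymus they were -0.042 (quantile normalization), -0.90 (without control thymus libraries 1 and 2), -0.13 (weights), -0.0295 (edgeR) and -0.0427 (DESeq2), with -0.48 to 0.85 on leaving out 1 library. For Ikzf3 between control liver and thymus they were 0.0353 (quantile), 0.0716 (scaled to the total without mitochondrial genes), 0.37 (without control thymus libraries 1 and 2), 0.0217 (without the 2 libraries of lowest depth) and 0.0109 (weights), with -0.33 to 0.14 on leaving out 1. Without control thymus libraries 1 and 2, Ikzf1 was at 0.0024 in thymus and 0.0846 over both tissues, and Ikzf5 at 0.55 (liver minus thymus) and -0.10 (control liver against thymus). Weights gave 0.0276 for Ikzf1 over both tissues. Without the 2 libraries of lowest depth Ikzf5 was at 0.13 in liver and 0.20 over both. Leaving out 1 library gave -0.10 to 0.0461 for Ikzf1 over both tissues, -0.0877 to 0.71 for Ikzf2 and -1.20 to 0.13 for Ikzf5 (liver minus thymus), -0.20 to 1.04 for Ikzf4 in liver and -0.29 to 3.03 between cKO tissues. For Ikzf5 it gave -0.67 to 0.0343 in liver and -0.42 to 0.24 over both. The cause was not tested. Exon lengths of the basic annotation and a block within genotype were chosen after seeing the data. At 3 libraries a group, differences in Ikzf4 and Ikzf5 of several fold were not detectable.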
